A study of Mus musculus with 5 samples.

Results

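The replication-dependent histone genes supply the linker histone H1 and the core histones H2A, H2B, H3 and H4 that package new DNA. They were taken here as every gene of the authors' deposited table whose symbol begins with H2ac, H2bc, H3c, H4c or Hist followed by its number, or is H1f0 to H1f5. This rule found 39 of the 18783 genes of the table, namely 6 of class H1, 7 of H2A, 10 of H2B, 8 of H3 and 8 of H4. RNA came from primary astrocyte cultures of C57BL/6 mouse pups (P0-P1), harvested at 12 days in vitro. All groups shared the strain, the medium with horse and fetal bovine serum, and an RNA preparation enriched for polyadenylated mRNA. Control cultures were naive (2 libraries), Aβ cultures received 1 µM amyloid-β peptide for 5 days (2 libraries), and Aβ+DFMO cultures received 1 µM Aβ with 50 µM DFMO for 5 days (1 library). DFMO is difluoromethylornithine, which blocks ornithine decarboxylase (gene Odc1). No label tells whether the 2 libraries of a group were separate cultures, so the p-values may reflect technical spread only.

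Replication-dependent histone mRNAs are made mainly in S phase, and most of them end in a short conserved stem-loop in place of a poly(A) tail. Stem-loop binding protein (SLBP) and the U7 small nuclear ribonucleoprotein guide the cut just after the stem-loop. Some of these genes are also known to be read past the stem-loop to a downstream poly(A) site, mainly in cells that have stopped dividing. H1f0 matches the rule by its name but is a linker histone of non-dividing cells whose mRNA is polyadenylated by default. Because the libraries were enriched for poly(A) RNA, a level given here is that of the RNA which such beads retain, not that of all histone mRNA.

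The stem-loop was searched in the GENCODE M21 transcripts of each gene (GRCm38, sense strand) as a perfect hairpin with arms of 6 bases, the first starting with GG, and a loop of 4 bases starting with TT. It was found in 26 of the 39 genes, and the 7 examples below show the 5 spellings found and the genes on which the results turn. Capitals mark the paired arms, and each sequence runs 5′ to 3′ on the strand of the gene.
H1f2: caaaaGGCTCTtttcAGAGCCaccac
H3c14: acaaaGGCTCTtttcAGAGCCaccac
H3c15: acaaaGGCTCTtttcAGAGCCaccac
H3c6: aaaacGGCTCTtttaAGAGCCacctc
H4c8: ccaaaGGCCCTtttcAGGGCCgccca
H4c9: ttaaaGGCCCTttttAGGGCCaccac
H4c11: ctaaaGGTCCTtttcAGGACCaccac

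These stretches lie, in GRCm38, at chr13:23739507-23739532 on the plus strand for H1f2, chr3:96247322-96247347 on the plus strand for H3c14 and chr3:96238480-96238505 on the minus strand for H3c15. Those of H3c6 and H4c8 lie at chr13:23561898-23561923 on the minus strand and chr13:23531453-23531478 on the plus strand. Those of H4c9 and H4c11 lie at chr13:22040961-22040986 on the minus strand and chr13:21735432-21735457 on the plus strand. The 26 bases shown for H3c14 and H3c15 are identical. The spelling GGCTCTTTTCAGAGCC occurred in 17 of the 26 genes, across H1, H2A, H2B and H3. The spellings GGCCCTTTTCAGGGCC (4 genes), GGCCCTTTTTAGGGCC (2 genes) and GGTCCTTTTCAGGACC (1 gene) occurred among the 39 genes only in H4, and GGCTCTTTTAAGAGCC occurred in H3c6 and H3c7. Any of the 5 spellings was present in 48 of 141767 GENCODE transcripts (0.0339%) on the sense strand and in 3 on the reverse strand. The spellings were taken from these histone genes, and hits of the search pattern itself in other transcripts were not counted. A gene without these letters may still hold a hairpin with a mismatch or lie in a transcript model that stops before it.

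Depth differed between the libraries: Control and Aβ had 46886111 to 105544237 reads each, and the Aβ+DFMO library had 4825677, which is 9.72 to 21.9 times fewer. In the Aβ+DFMO column, 77.9% of all genes held whole multiples (within 0.05) of 7.45 normalized units, taken as the worth of 1 read, and an estimated number of reads was obtained by dividing by it. All 9 astrocyte markers looked for were present, Gfap among them with authors' means of 57209 in Control, 57495 in Aβ and 41383 in Aβ+DFMO. Gene values were used as group means only, so the spread of a histone gene over libraries is not given. Calls are those with an adjusted p below 0.05 in the authors' deposited table. The standard error beside a log2 ratio is implied from that table's p, assuming a Wald test. Both comparisons use the same Aβ libraries.

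Histone mRNA was a small part of the signal, and a few genes held most of it. The authors' means of the 39 genes summed to 20184 in Control, 19938 in Aβ and 15504 in Aβ+DFMO, or 0.0663%, 0.0674% and 0.0511% of the summed signal of all genes. H1f2, H1f0 and H2bc4 together held 73.5% of the histone sum in Control, 73.6% in Aβ and 67.6% in Aβ+DFMO. The other 36 genes shared the rest. The plot of group means by class shows this spread. In such bulk RNA, fewer cells that make an mRNA and less of it in each cell cannot be told apart.

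**Figure D1:**
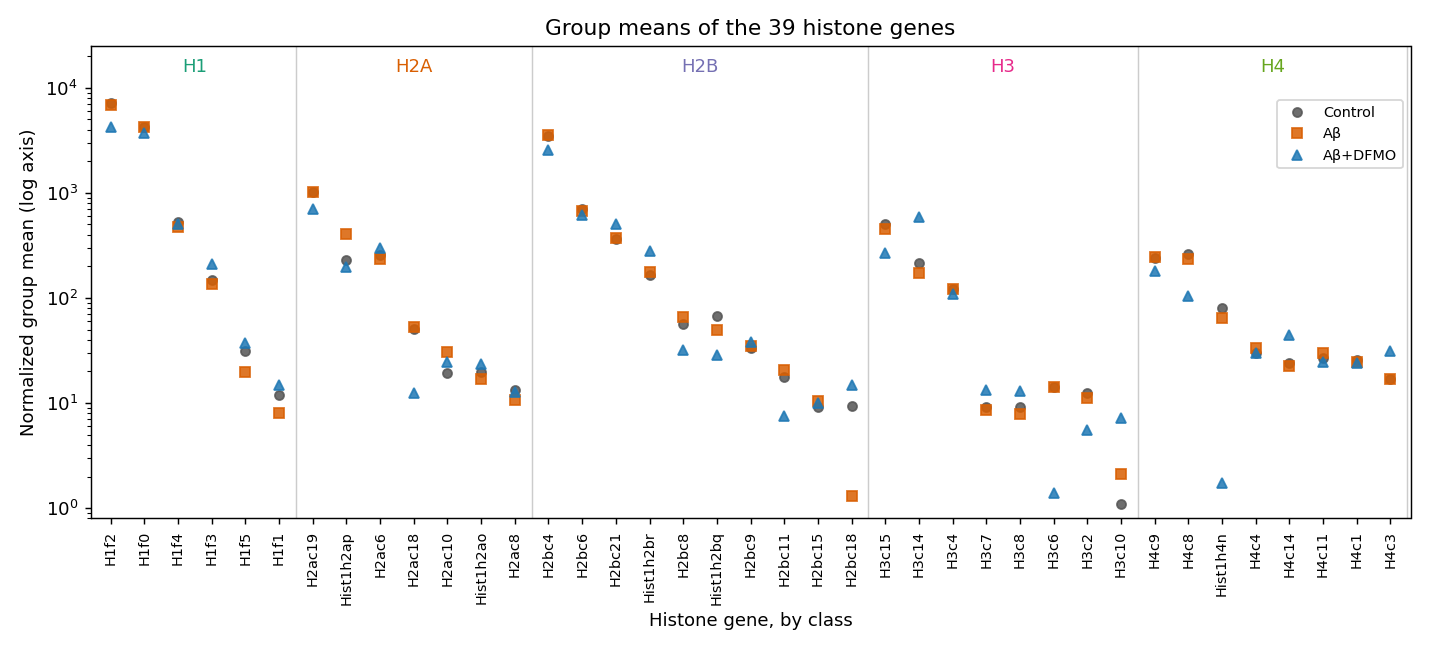
The authors' normalized group means (log axis) of the 39 histone genes, ordered by class and then by mean, in Control (circles), Aβ (squares) and Aβ+DFMO (triangles). H1f2, H1f0 and H2bc4 stand above all other genes in the 3 groups, the Control and Aβ symbols mostly coincide, and the Aβ+DFMO symbol stands furthest above the Aβ symbol, where the Aβ mean is at least 50, for H3c14.

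Levels of different genes were compared per kilobase (kb) of the longest GENCODE transcript. H1f2, which encodes linker histone H1.2, had the highest authors' mean per kb, at 4592 in Control, 4398 in Aβ and 2693 in Aβ+DFMO. H2bc4, a core histone H2B gene, followed with 2987, 3076 and 2225 per kb. H1f0 had 2050, 2069 and 1806 per kb. H2ac19, a core histone H2A gene, had 1947, 1924 and 1334 per kb. The order of these 4 genes in Control and Aβ was the same, and no error per gene level was at hand to say whether H1f0 and H2ac19 differed. The most abundant H4 gene per kb in Control was H4c8, at 556 in Control, 500 in Aβ and 221 in Aβ+DFMO. Among H3 genes it was H3c15, at 493, 444 and 262 per kb.

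The question of the first comparison was what Aβ changes. None of the 39 histone genes was called between Aβ and Control, where the authors' deposited DESeq2 table called 54 of all 18783 genes (0.287%), with 0.112% higher and 0.176% lower. At an unadjusted p under 0.05 there was 1 histone gene, against 1.72% of all genes. It was H2bc18, an H2B gene whose authors' mean was 9.37 in Control and 1.32 in Aβ (log2 ratio -2.83, implied SE 1.41, unadjusted p = 0.0455, adjusted p = 1.00 in the authors' deposited table). All stretches of 75 bases of H2bc18 were also found in Gm20628, annotated antisense to it, and its Aβ+DFMO mean of 14.9 was the worth of 2.00 reads.

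The more abundant histone genes had nearly the same mean with and without Aβ. For H1f2 the authors' mean was 7163 in Control and 6861 in Aβ (log2 ratio -0.06, implied SE 0.0908 in the authors' deposited table). For H2bc4 it was 3453 and 3556 (log2 ratio 0.04, implied SE 0.102 in the same deposited table). H1f0 had 4214 in Control and 4252 in Aβ, and H2ac19 had 1028 and 1016. Over the 39 genes 17 log2 ratios were above 0 and 22 below, with a median of -0.06 beside 0.00 over all genes. By class, the log2 ratio of the summed means was -0.04 for H1, 0.13 for H2A, 0.02 for H2B, -0.16 for H3 and -0.07 for H4. Among those whose Aβ mean reached 50, the highest log2 ratio was that of Hist1h2ap, an H2A gene, whose authors' mean was 229 in Control and 405 in Aβ (log2 ratio 0.82, implied SE 1.09, adjusted p = 1.00 in the authors' deposited table). Its implied SE was larger than the ratio itself. At the low end of that set stood Hist1h2bq (67.6 and 50.0, log2 ratio -0.43) and H3c14 (213 and 172, log2 ratio -0.31). Neither was called in the authors' deposited table. The summed H2A means, 1614 in Control and 1765 in Aβ, include the 229 and 405 of Hist1h2ap. Over the 7 H2A genes 4 log2 ratios were below 0, with a median of -0.02.

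The second comparison asked how DFMO alters Aβ-treated cultures. In the authors' deposited table, 3 of the 39 histone genes were called between Aβ+DFMO and Aβ (7.69%), beside 1724 of all 18783 genes (9.18%). One gene was higher, where 4.0% of all genes were called higher, and 2 were lower, where 5.18% of all genes were called lower. These shares are near those of the table as a whole, but they do not compare genes of like depth. An estimated 23 of the 39 histone genes had under 10 reads in Aβ+DFMO, beside 5198 of all 18783 genes. The median log2 ratio of the 39 genes was -0.13, beside 0.01 over all genes, with 17 above 0 and 22 below. The log2 ratio of their summed means was -0.36, but -0.07 without H1f0, H1f2 and H2bc4.

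H3c14, which encodes the core histone H3.2, was the gene called higher. Its authors' mean was 213 in Control, 172 in Aβ and 591 in Aβ+DFMO. It rose by a log2 ratio of 1.78 against Aβ in the authors' deposited table (implied SE 0.301, adjusted p = 7.59e-07). The Aβ+DFMO value corresponded to an estimated 79.3 reads of the single library. H3c14 lies within the noncoding gene Gm20634, whose mean was lower there, and the sum of both was 1378 in Aβ and 1420 in Aβ+DFMO. H3c15, the other gene of the pair, had authors' means of 503, 453 and 267, and its log2 ratio of -0.76 (implied SE 0.314, adjusted p = 0.114 in the authors' deposited table) did not pass.

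H1f2 fell by 0.71 on the log2 scale in the authors' deposited table (implied SE 0.126, adjusted p = 3.36e-06). Its authors' means were 7163 in Control, 6861 in Aβ and 4202 in Aβ+DFMO, the last from an estimated 563.8 reads. H2bc4 fell by 0.47 in the authors' deposited table (implied SE 0.146, adjusted p = 0.0211), with authors' means of 3453, 3556 and 2572 and an estimated 345.2 reads. H1f0, the polyadenylated linker histone with a level close to theirs, had 4214, 4252 and 3711 (log2 ratio -0.20, implied SE 0.121, adjusted p = 0.372 in the authors' deposited table). In the Aβ+DFMO column, H1f2 and H2bc4 lay below both other groups and H3c14 above both.

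Across 11744 genes whose Aβ mean reached 200, the log2 ratio of Aβ+DFMO against Aβ was lower at a higher GC content of the transcript (Spearman rho -0.70, across genes, which are not independent replicates), while that of Aβ against Control gave rho 0.11. GC content was 48.8% for H3c14, 55.1% for H1f2 and 45.9% for H2bc4. The adjusted p-values given next were recomputed from the log2 ratio left after subtraction and the implied SE. They are not the authors' and hold no error of the trend. With a smooth GC trend subtracted from the log2 ratios of the authors' deposited table, H3c14 kept a log2 ratio of 1.78 (adjusted p = 1.77e-06) and H2bc4 one of -0.59 (adjusted p = 0.00633). H1f2 then had -0.40 and an adjusted p of 0.0673. The median over the 39 genes turned from -0.13 to 0.20 with the trend subtracted, but that of the 16 with at least 10 estimated reads went from -0.17 to -0.07. Marker genes of other cells moved in the same comparison of the authors' deposited table: 5 of 6 oligodendrocyte lineage markers fell (summed means 38943 in Control, 38784 in Aβ and 21031 in Aβ+DFMO), as did 3 of 9 astrocyte markers (159749, 159441 and 126787) and 1 of 6 microglial markers (10589, 5453 and 3753). Of 4 neuron markers 1 fell (12921, 12589 and 12818). Of 6 fibroblast and mural markers 2 rose and none fell (75813, 77896 and 91178), Myh11 by a log2 ratio of 1.37 and Acta2 by 0.28 in the authors' deposited table. The 1 endothelial marker in the table, Cdh5, was not called (17.9, 20.1 and 7.45). Between Aβ and Control, 4 of 6 microglial markers were called lower in the authors' deposited DESeq2 table, beside 0.176% of all genes, with a median log2 ratio of -1.15 over the 6. No marker of the other cell types was called there. The part of these markers in the histone values was not tested in either comparison.

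A further 4 histone genes had an unadjusted p under 0.05 between Aβ+DFMO and Aβ but did not pass the adjusted threshold, making 7 of 39 beside 20.9% of all genes. They were H3c15 above, H2ac19, H4c8 and Hist1h4n. For H2ac19 the authors' means were 1028, 1016 and 705 (log2 ratio -0.53, implied SE 0.242, adjusted p = 0.170 in the authors' deposited table). H4c8, a core histone H4 gene, had 261, 235 and 104 from an estimated 13.9 reads (log2 ratio -1.18, implied SE 0.470, adjusted p = 0.0964 in the same deposited table). Hist1h4n, another H4 gene, had 79.7, 64.9 and 1.75, the last equal to 0.234 of a read (log2 ratio -5.22, adjusted p = 0.1005 in the authors' deposited table). A value under 1 read cannot be a count of whole reads, and 83.4% of the stretches of Hist1h4n were also found in other genes.

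By class, the log2 ratio of summed means for Aβ+DFMO against Aβ was -0.44 for H1, -0.47 for H2A, -0.27 for H2B, 0.35 for H3 and -0.62 for H4. Among the H3 genes above an Aβ mean of 50, H3c14 alone was higher: H3c15 and H3c4 (121, 121 and 110) had lower means in Aβ+DFMO than in Aβ. In H4, 6 of 8 log2 ratios were below 0. In H1, 4 of 6 were above 0 although the sum was lower, since H1f2 and H1f0 carry most of that sum. H1f3 had authors' means of 148, 137 and 209, and H1f4 had 528, 475 and 505, with log2 ratios of 0.61 and 0.09 in the authors' deposited table, neither of them called. H1f4 and H2bc6 overlap on the same strand in GENCODE, so the division of reads between them is uncertain. Of the more abundant H2B genes, H2bc6 had 708, 671 and 612, and H2bc21 had 368, 375 and 507 from an estimated 68.0 reads (log2 ratio 0.44, adjusted p = 0.378 in the authors' deposited table). H2bc8 had 56.3, 65.7 and 31.9, the last from an estimated 4.29 reads. H2ac6, an H2A gene, had 254, 233 and 300, and H4c9 had 239, 244 and 179, none of these called in the authors' deposited table.

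Most histone genes were too thinly covered in the Aβ+DFMO library for a ratio to be read. An estimated 23 of the 39 genes had under 10 reads there, and 12 had under 3, while 5198 of all 18783 genes had under 10. Of the 11 histone genes whose log2 ratio exceeded 1 in size between Aβ+DFMO and Aβ, 8 had under 10 reads. Between Aβ and Control, 38 of 39 log2 ratios were under 1 in size. The plot of log2 ratios against estimated reads shows the wide scatter below 10 reads.

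**Figure D2:**
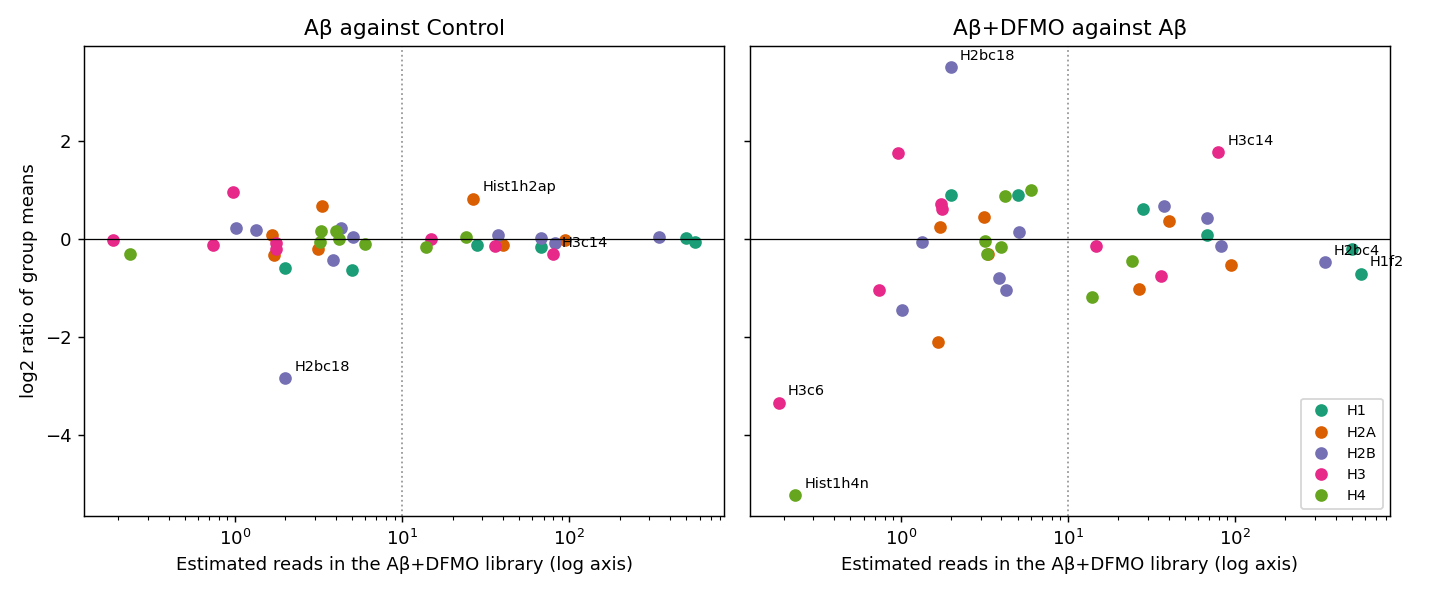
Log2 ratio of the authors' group means for Aβ against Control (left) and Aβ+DFMO against Aβ (right), plotted for each of the 39 histone genes against its estimated reads in the Aβ+DFMO library (log axis), coloured by class; the dotted line marks 10 reads. At left 38 of 39 points lie within 1 of 0, whereas at right the points below 10 reads scatter widely, and H3c14 is the only gene above 1 among those with more reads.

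Many histone genes share sequence with another gene, either a histone copy or an overlapping noncoding gene, which bears on how reads were divided between them. Of all stretches of 75 bases (the read length) in the GENCODE transcripts of a histone gene, a median of 42.0% also occurred in the transcripts of another gene. Stretches were matched on either strand, and 16 of the 39 genes shared at least 50% of theirs. All were shared for H3c14, H2ac18, H2ac19 and H2bc18, and none for H1f1, H1f5, H2bc21 and H4c14. The full sharing was with noncoding genes, namely Gm20634 for H3c14, Gm20633 for H2ac18, Gm20632 for H2ac19 and Gm20628 for H2bc18. H2ac19 also shared 100% with H2ac18, whereas H3c14 shared 33.8% with H3c15. In the Aβ+DFMO column, 11 of 39 histone genes (28.2%) held a whole number of reads, beside 77.9% of all genes. Among genes under 27 reads the shares were 29.6% of 27 histone genes and 80.2% of 7242 genes. How reads that match several genes were counted was not stated in the labels or the submitters' processing notes.

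H3c14 and H3c15 lie on chromosome 3 as mirrored neighbours with the H2A genes H2ac18 and H2ac19. In GRCm38, H3c15 spans 96238108 to 96239127 and H2ac19 96239749 to 96240276, both on the minus strand. H2ac18 spans 96245497 to 96246082 and H3c14 96246685 to 96248509, both on the plus strand. The annotated transcript of H3c14 runs 1167 bases past the end of its stem-loop, and that of H3c15 runs 377 bases past. The noncoding gene Gm20634 (96245554 to 96248509, plus strand) overlaps both H2ac18 and H3c14 and holds all stretches of 75 bases of H3c14. Values of H3c14 are therefore uncertain in how reads were divided between these genes.

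Gm20634, which is no histone gene, had authors' means of 1190 in Control, 1206 in Aβ and 829 in Aβ+DFMO (log2 ratio -0.54, adjusted p = 0.0576 for Aβ+DFMO against Aβ in the authors' deposited table). From Aβ to Aβ+DFMO the mean of H3c14 was higher by 418.5 normalized units and that of Gm20634 was lower (difference -377). The sum of H3c14 and Gm20634 was 1404 in Control, 1378 in Aβ and 1420 in Aβ+DFMO, a log2 ratio of 0.04 for Aβ+DFMO against Aβ. With H3c15 added, the sum was 1906, 1831 and 1687 (log2 ratio -0.12). The sum of H3c14 and H3c15 alone was 716, 625 and 858 (log2 ratio 0.46), of which H3c14 made up 29.8%, 27.6% and 68.8%. In the means as given, the higher value of H3c14 thus appears in the sum with H3c15 and not in the sum with Gm20634. With the GC trend subtracted, the log2 ratio against Aβ was 1.78 for H3c14, -0.25 for Gm20634 and -0.20 for H3c15. The sums were not formed anew with the trend subtracted. Over 7 genes (H2ac18, H2ac19, H3c14, H3c15, Gm20632, Gm20633 and Gm20634) the sum was 3498, 3434 and 2899, a log2 ratio of -0.24 for Aβ+DFMO against Aβ. How reads were divided among them was not tested.

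**Figure D3:**
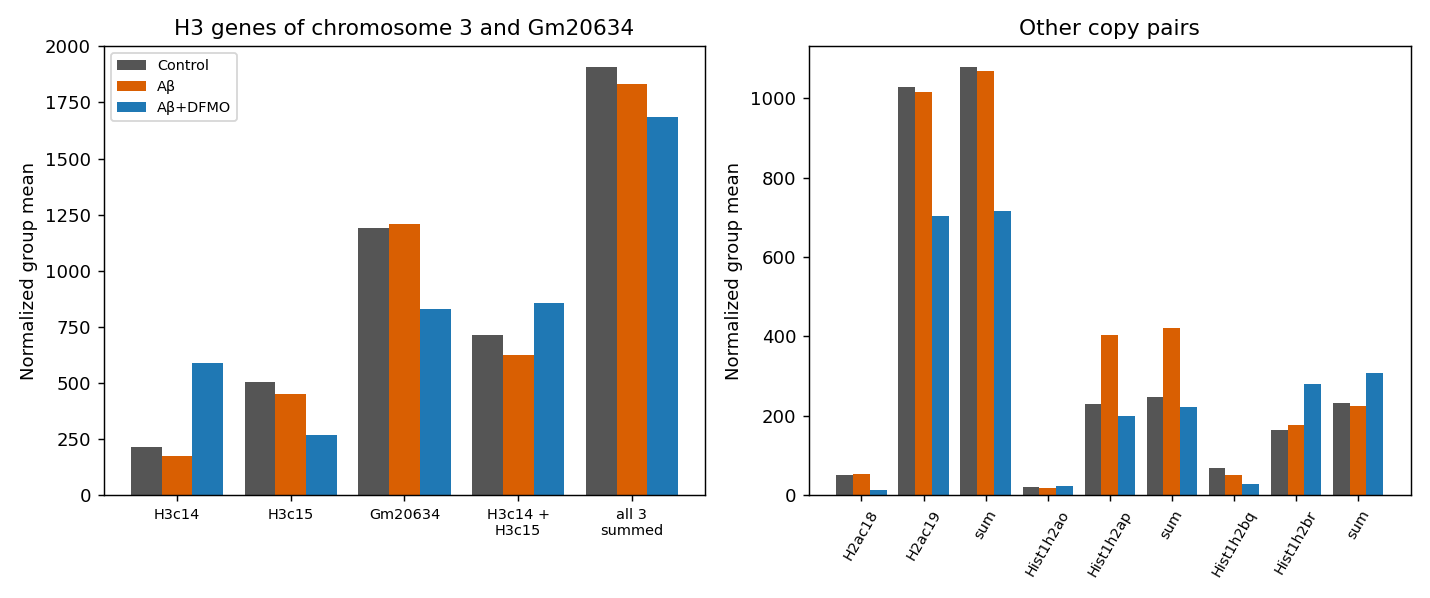
Authors' normalized group means (bars from 0) in Control, Aβ and Aβ+DFMO for H3c14, H3c15, the overlapping noncoding gene Gm20634 and their sums (left) and for 3 further copy pairs with their sums (right). At left H3c14 is higher in Aβ+DFMO while H3c15 and Gm20634 are lower, and the sum of all 3 is 1906, 1831 and 1687.

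In the copy pairs below the share of each copy also varied between groups, but 1 copy of each pair had few reads in Aβ+DFMO. The estimated reads were 1.66 for H2ac18, 3.88 for Hist1h2bq and 3.14 for Hist1h2ao. No error of a share was at hand. H2ac18 and H2ac19 summed to 1078 in Control, 1069 in Aβ and 717 in Aβ+DFMO, a log2 ratio of -0.58 for Aβ+DFMO against Aβ. Of this sum, H2ac18 had 4.67%, 4.97% and 1.73%. Hist1h2bq and Hist1h2br summed to 233, 226 and 309 (log2 ratio 0.45), while the share of Hist1h2bq was 29.0%, 22.2% and 9.36%. Hist1h2br alone had 165, 176 and 280 (log2 ratio 0.67, adjusted p = 0.291 in the authors' deposited table). Hist1h2ao and Hist1h2ap summed to 249, 422 and 222. The sum of this H2A pair was higher in Aβ than in both other groups, and it rests almost wholly on Hist1h2ap.

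H2A and H2B genes often stand head to head and share the stretch between their starts. Among the 39 genes 4 such pairs had starts under 500 bases apart. For H2ac6 and H2bc4, whose starts were 251 bases apart, the level per kb of H2bc4 was 29.2 times that of H2ac6 in Control, 32.8 times in Aβ and 18.4 times in Aβ+DFMO. For H2ac8 and H2bc8 (176 bases apart) the ratio of H2B to H2A was 4.79, 6.98 and 2.86. For Hist1h2ap and Hist1h2br (236 bases apart) it was 0.158, 0.0952 and 0.309, and for Hist1h2ao and Hist1h2bq (268 bases apart) 0.814, 0.696 and 0.294. In this poly(A)-enriched RNA, H2B was thus the more abundant partner per kb in the first and second of these pairs and H2A in the others, in all 3 groups. In the others the order depends on the annotated lengths, 482 and 480 bases for Hist1h2ap and Hist1h2ao but 2197 and 2015 for Hist1h2br and Hist1h2bq. Undivided means were 67.6, 50.0 and 28.9 for Hist1h2bq against 19.8, 17.1 and 23.4 for Hist1h2ao. They were 165, 176 and 280 for Hist1h2br against 229, 405 and 198 for Hist1h2ap. For H2bc4 and H2ac6 the size of the ratio, but not the order, depends on the annotated lengths of 1156 and 2482 bases. Their undivided means were 3453, 3556 and 2572 against 254, 233 and 300. H2ac8, Hist1h2ao, H2bc8 and Hist1h2bq had under 10 estimated reads in Aβ+DFMO.

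The end of the annotated transcript separated the genes into 3 kinds. In 8 genes the GENCODE transcript ended within 60 bases after the stem-loop, in 18 it ran further, as in H1f2 (840 bases), H2ac6 (2010 bases) and H1f3 (4884 bases), and in 13, H1f0 and H2bc4 among them, no stem-loop was found. The letters of a poly(A) signal (AATAAA or ATTAAA, sense strand) were in the last 40 bases of the longest transcript of 12 of the 39 genes (30.8%), beside 63.4% of 18592 genes of the table. Of the 12, 7 run past a stem-loop, H1f2 and H3c14 among them, 1 ends near it (H4c8) and the others, such as H1f0 and H2bc21, hold none. The median Control level per kb was 136 where the transcript ended near the stem-loop, 63.0 where it ran past and 41.7 where no stem-loop was found. Each kind spanned a wide range, from 19.9 to 1947 for the first and from 7.30 to 4592 for the second. A level per kb depends on the annotated length, which is longer for transcripts that run past.

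**Figure D4:**
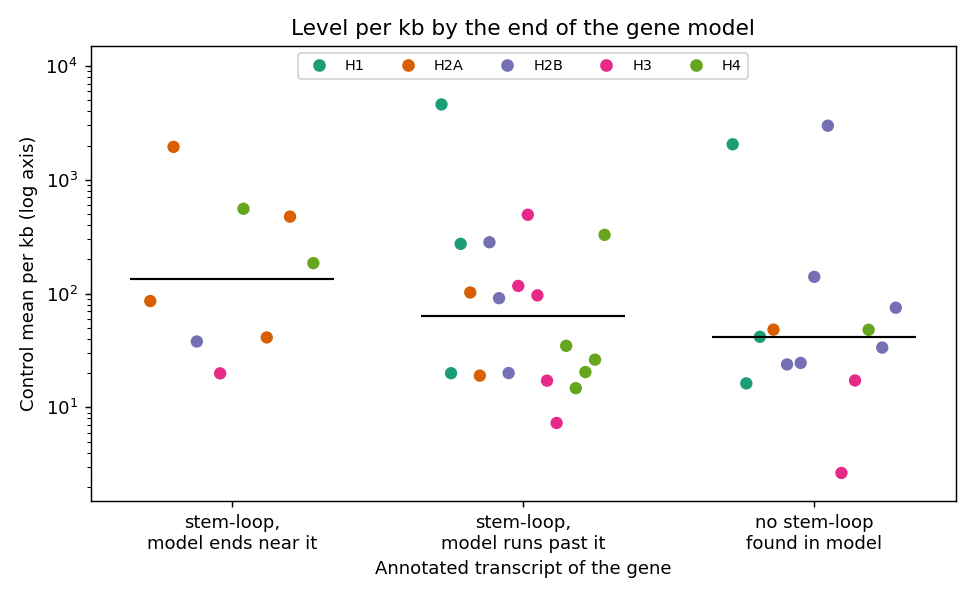
Authors' Control mean per kb of the longest GENCODE transcript (log axis) for each of the 39 histone genes, grouped by whether the transcript ends within 60 bases after a stem-loop (8 genes), runs past it (18 genes) or holds none (13 genes); colours mark the class and horizontal lines the medians. The 3 groups overlap widely, and their highest genes reach 1947, 4592 and 2987 per kb.

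Between Aβ+DFMO and Aβ, 7 of the 8 genes whose transcript ended near the stem-loop had a log2 ratio below 0, with a median of -1.11, and none of them was called in the authors' deposited table. The median was -0.02 for the 18 genes whose transcript ran past and 0.44 for the 13 without. The first kind also had the highest median GC content (62.3%, beside 50.3% and 55.4%). It had the highest median share of stretches found in other genes as well (88.0%, beside 22.0% and 46.1%). Under 10 estimated reads were held by 5 of its 8 genes, 9 of the 18 and 9 of the 13. With the GC trend subtracted the medians were -0.62, -0.08 and 0.62. Among genes of the first kind with at least 10 estimated reads, the values were then 0.22 (H2ac19), -0.27 (Hist1h2ap) and -0.73 (H4c8). Among such genes without a stem-loop they were -0.05 (H1f0), -0.59 (H2bc4), 0.29 (H2bc21) and 0.55 (Hist1h2br). These are descriptions with no test.

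Genes that act beside these histones were counted by function. Of 12 genes in the table listed as replacement or variant histones outside the rule, none was called between Aβ and Control in the authors' deposited table. Between Aβ+DFMO and Aβ, 2 rose and 2 fell there: H2az1 (log2 ratio 0.41), H3f3b, which encodes H3.3 (0.37), H1f10 (-0.94) and H2ax, whose protein marks DNA breaks (-0.93). H3f3b had authors' means of 13021, 13045 and 16910, and H2ax had 1041, 1075 and 566.

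Of 19 genes that process histone mRNA, 4 rose and 1 fell from Aβ to Aβ+DFMO by the authors' deposited table, with a median log2 ratio of 0.15. Slbp, the stem-loop binding protein, had authors' means of 1095, 1112 and 1677 (log2 ratio 0.59, implied SE 0.167, adjusted p = 0.00869 in the authors' deposited table). Of 20 histone chaperones and their partners, 3 rose (Hat1, Nasp and Rbbp4) and 2 fell (Ipo4 and Cabin1) in the authors' deposited table. Of 35 S phase genes 3 rose there (Ccna2, Rrm2 and Ccne2) and none fell, and of 16 mitosis genes 6 rose and none fell. Over all genes, 4.0% were called higher and 5.18% lower in this comparison. None of the genes of these 5 lists was called between Aβ and Control in the authors' deposited DESeq2 table, where 1 of them, Rbbp4, had an unadjusted p under 0.05 (0.00966), and none of those called in the second comparison passed once the GC trend was subtracted and the p-values were adjusted anew over all genes. The log2 ratio of H2az1 went from 0.41 to 0.39, Tpx2, a spindle assembly factor, from 0.42 to 0.37, Ccna2 from 0.47 to 0.36 and Slbp from 0.59 to 0.42. The medians with the trend subtracted were 0.15 for the S phase list and 0.34 for the mitosis list, beside 0.20 for the 39 histone genes. Without that step they were 0.14 and 0.39 beside -0.13, so over all 39 histone genes the sign differed from these lists only before the subtraction. The 16 histone genes with at least 10 estimated reads in Aβ+DFMO had medians of -0.17 before and -0.07 after it. The 23 with under 10 reads had -0.05 and 0.50. No difference between lists was tested.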

How the data were processed

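The files used were the authors' deposited table of 18783 genes and a deposited summary of reads per library. Per the file headers, the table gives a least-squares mean per group, taken as a normalized signal, with a p-value, an adjusted p-value and a log2 ratio for each comparison. The summary gives the total reads per library, per the file headers. The submitters' processing notes name STAR 2.7.3a, Partek, DESeq2 and FastQC, and the builds mm10 and GRCm39 with no role; no counting program, strand setting or annotation was stated there or in the labels.

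No test was run on single libraries, since gene values were group means. Apart from those given with the GC trend subtracted, the p-values are those of the authors' deposited DESeq2 table. There the lone Aβ+DFMO library is assumed to vary like the others. With the trend subtracted, p-values were recomputed from the remaining log2 ratio over the implied SE, by the normal distribution, and adjusted anew. They hold no error of the trend. The implied SE is the absolute log2 ratio over the normal quantile for its two-sided p. For Aβ against Control 76.6% of p-values were over 0.5, so these SEs may be too large, and a gene not called is not shown to be unchanged. All 39 symbols were matched to GENCODE M21 (GRCm38), 34 of them directly in the RefSeq gene table, where their positions overlapped those of GENCODE, and 5 under an older symbol. The GC trend was a lowess curve (fraction 0.3, statsmodels 0.14.6) over genes whose Aβ mean reached 200, as that of 12 of the 39 histone genes did. Its subtraction was tried on simulated data for such genes, with a straight GC slope. The simulated GC range did not reach the most GC-rich histone genes, so the trial does not cover them. Named genes were those called, the 2 highest of each class, the extremes of each class by log2 ratio at an Aβ mean of at least 50, and H1f0; other genes, Gm20634 and H2bc18 included, were named after their values were seen. The genes and lists were chosen with earlier results of these data known.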

Additional observations from a re-analysis of the deposited data

How the results depend on the processing

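No paired analysis was possible because gene values were used as group means only, and for the same reason no library could be left out in turn. Of 45 alternative values for 8 results, 33 stayed within 0.1 on the log2 scale or, for counts, within 1.5 times of the reported value. Among these 33, the near-zero log2 ratio of the summed means for Aβ against Control, -0.018, changed sign to 0.0063 without H1f2 and 0.025 when centred on the signal of all genes. The 3 calls for Aβ+DFMO against Aβ became 4 at an adjusted p under 0.1 and 2 with the GC trend subtracted. At an unadjusted p under 0.05 the authors' deposited table gave 1 histone gene for Aβ against Control in place of 0, and 7 for Aβ+DFMO against Aβ in place of 3. The median log2 ratio of Aβ+DFMO against Aβ, -0.13 over all 39 genes, was -0.46 over those with an Aβ mean of at least 50 and also at least 200. It reversed to 0.20 over the 39 genes with the GC trend subtracted. Against Control the values were -0.08, -0.31, -0.31 and 0.12. Over the 16 genes with at least 10 estimated reads, the median against Aβ was -0.07 with the GC trend subtracted. The log2 ratio of the summed means, -0.36 against Aβ, was -0.21 without H1f2, the gene with the highest mean, and -0.070 without H1f0, H1f2 and H2bc4; against Control the values were -0.38, -0.20 and -0.093. Subtracting the GC trend for the counts of calls, taking only genes with 10 reads, summing copy pairs and leaving out H1f0, H1f2 and H2bc4 together were chosen after seeing the data. The depth of the single Aβ+DFMO library limits every ratio that uses it.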
